A study of Schizosaccharomyces pombe with 5 samples.

Results

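Peaks of CLIP-Seq tags lay over 5 genes of the ubiquitin and NEDD8 pathways of fission yeast, namely ubc7, ubc8, ubc14, uba3 and ufd1. These genes were chosen by the measured values that make a peak, since a called excess of tagged over untagged tags overlapped each of them by coordinates. A peak over every one is therefore given by the choice. They account for 5 of the 268 listed peaks, 1 of the 128 peaks of Mei2-TAP (ubc7) and 4 of the 140 peaks of Msa1-TAP (ubc8, ubc14, uba3 and ufd1). None of the 5 genes lay under peaks of both lists, where 16 of the 5113 annotated coding genes (0.313%) lay. As background for the counts in each list, 2.25% of the coding genes lay under a Mei2-TAP peak and 2.54% under an Msa1-TAP peak. Nothing is read from the members' own shares.

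In CLIP-Seq, RNA is crosslinked to protein by ultraviolet light in the cell, recovered with the protein by immunoprecipitation and sequenced. The cells were homothallic (h90) Schizosaccharomyces pombe carrying mei2-TAP, msa1-TAP or no tag, with each tag at the C-terminus of the protein and linked to KanMX. All strains, the untagged one included, also carried ura4-D18 and leu1-32. All groups were grown in rich medium (30 °C in the labels, another temperature in the methods) and starved of nitrogen in ME medium. The labels give 4 h of starvation, whereas samples at 4, 5 and 6 h are named in the protocol and pooling over those times in the study's text. The series comprised 2 Mei2-TAP libraries, 2 Msa1-TAP libraries and 1 untagged library, and each peak list compares 1 tagged library with the untagged library. The second library of each tag was not analysed here, so no value below has a replicate check and no difference was tested.

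Ubiquitin is a small protein that is attached to other proteins, often to mark them for destruction by the proteasome. An activating enzyme (E1) passes it to a conjugating enzyme (E2), and a ligase (E3) then directs it to the substrate. NEDD8 is a related modifier with its own E1 and E2, best known for its attachment to cullins, the scaffolds of a large family of ubiquitin ligases. The segregase Cdc48, with its partners Ufd1 and Npl4, extracts ubiquitin-marked proteins from membranes and complexes. In fission yeast, turnover of Mei2 itself in growing cells depends on ubiquitin and the proteasome.

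The sequences shown first are those of the annotated landmarks inside or beside 3 of the peaks, to show where these peaks lie in their genes. They were read from the RefSeq genome (ASM294v3) at positions of its own annotation, 5′ to 3′ on the strand of the gene. Capitals mark the first or last 2 bases of an intron, or the start codon.

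ubc7, end of exon 1 and start of intron 1: tttccttccGTaagtcctttactataaacc
ubc7, end of intron 1 and start of exon 2: gattctaacttttttatgtAGgattatcct
ufd1, start codon and start of intron 1: ATGgtatggtttttttagagaatgcgtacg
ufd1, end of intron 1 and start of exon 2: gacttactcacgtattAGtttggcggcagc
uba3, the coding bases under its peak: ATGccctcctcagacgta

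The 2 ubc7 runs lie at chromosome II 1905979 to 1906008 and 1906363 to 1906392, the 2 ufd1 runs at chromosome II 4282154 to 4282183 and 4282186 to 4282215, and the uba3 run at chromosome I 461939 to 461956, all on the plus strand. The ubc7 runs show the splice sites that flank its peak on either side. The ufd1 runs show that the annotated coding sequence is interrupted directly after the start codon. The uba3 run is the full coding part of its peak.

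Conjugating enzymes are taken first. The ubc7 gene (SPBP16F5.04) encodes an E2 that serves the degradation of proteins at the endoplasmic reticulum. It lies on the plus strand of chromosome II from 1905688 to 1907025, with 3 exons and 2 introns. The Mei2-TAP peak spanned 1906155 to 1906355, a size of 200 nt, which was also the median peak size of both lists. Edges of peaks are those of the called regions, and whether they are limits of the recovered RNA is not given by the lists. It held 21.5 tags in the Mei2-TAP library, against 0.5 tags in the untagged library (a read counts as 0.5 tags because the reads come in pairs). No listed peak of either list had fewer untagged tags, so whether 0.5 is a counted read or stands for none is not known. The intervals take it as counted. Scaled to 10000000 tags of each library, the values are 1108 for Mei2-TAP and 19.8 for untagged, with exact 95% Poisson intervals of 690 to 1686 and 0.0194 to 185. The ratio was 56.0, with an exact 95% interval of 5.43 to 58982, whose width comes with the 0.5 untagged tags in the denominator. It was 28.6 with 0.5 tags added to both libraries and 9.33 with the untagged tags set to a floor of 3. The Poisson intervals did not overlap. All intervals cover counting error only, and amplified reads without molecular identifiers are not independent molecules.

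Within the Mei2-TAP list, the ubc7 peak stood at position 3 of 128 by the ratio of tags and at position 37 by the number of tags, against a list median of 13.25 tags. The high ratio thus came with a number of tags above the median and with the fewest untagged tags listed, a value that 13 of the 128 peaks had. No Msa1-TAP peak overlapped ubc7, and the nearest lay 105.2 kb away. The number of Msa1-TAP tags at ubc7 is not in the lists, which hold called peaks only, so recovery with Msa1-TAP short of a call cannot be seen in them. The study also called Mei2-TAP peaks directly against Msa1-TAP. It lists ubc7 as a Mei2 target by CLIP-Seq, but not by its microarray assay of RNA immunoprecipitated without crosslinking.

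The ubc7 peak lay wholly inside intron 1, with all of its 200 nt between the splice sites printed above. It began 168 nt after the start of the intron and ended 28 nt before its last base, and so covered 50.5% of the 396 nt intron. Among 5204 annotated introns of coding genes the median length was 56 nt, and only 59 introns (1.13%) were as long as this one or longer. Of the 117 Mei2-TAP peaks over coding genes, ubc7 was the only one that lay wholly in 1 intron (0.855%), and of the 119 Msa1-TAP peaks over coding genes 0 did. Only introns of at least 200 nt, 342 in all, could hold such a peak. The midpoint of 3 further Mei2-TAP peaks and of 2 Msa1-TAP peaks fell in an intron.

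The letters CTAAC, searched on the strand of the gene, which match the branch site used in splicing, stand in the printed end of ubc7 intron 1, with the fourth letter 13 nt before the last base of the intron. In the last 50 nt, 75.1% of introns held CTAAC, its form ending in T (CTAAT), or either of these with G in the middle (CTGAC as well as CTGAT), and 99.4% of introns began with the bases GT and ended with the bases AG. The peak ended upstream of these letters. On the minus strand, the non-coding RNA SPNCRNA.5398 lay under 85 nt of the peak (42.5%) and reached on into exons 2 and 3 of ubc7. The strand of a peak is not known, because the lists mark every one of them with a plus sign. Unspliced ubc7 RNA and the antisense RNA cannot be told apart over the shared part. Over the other 115 nt of the peak ubc7 was the only annotated gene.

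**Figure D1:**
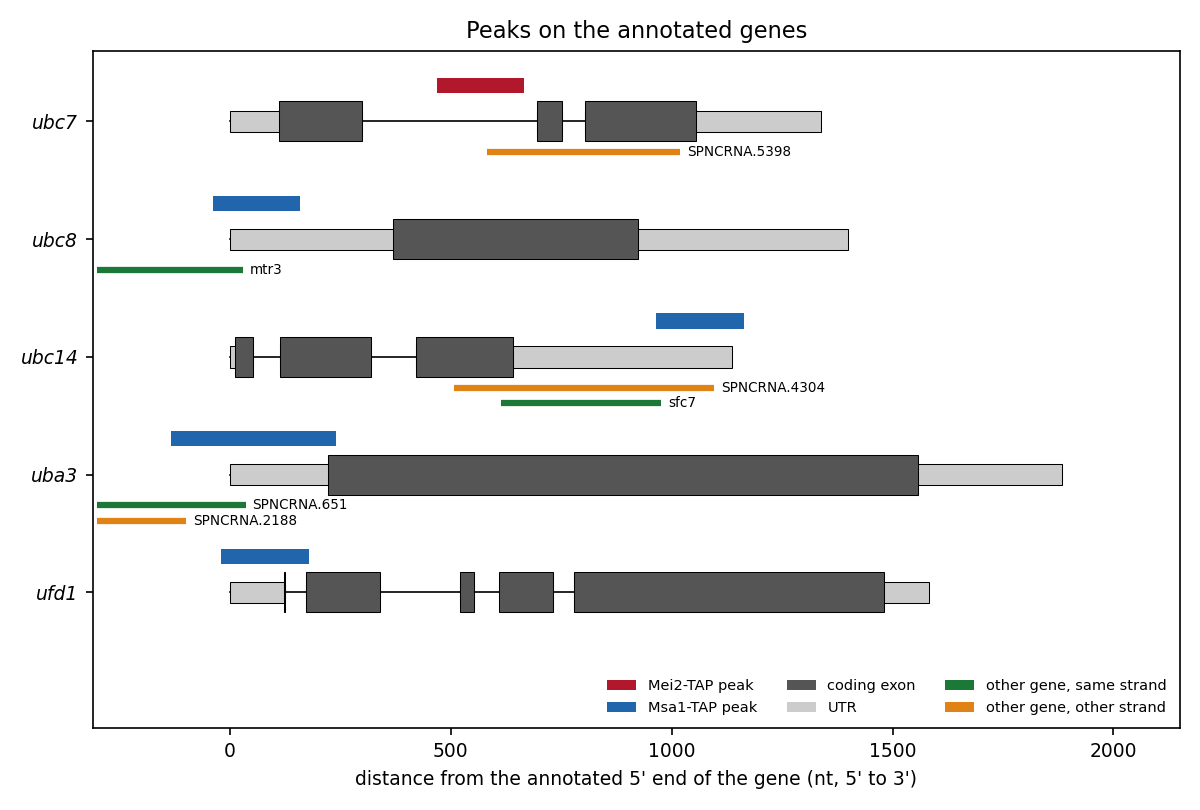
Annotated models of the 5 genes, drawn to scale from the annotated 5′ end (x axis, nt), with the peak above each model and other genes under the peak below it, cut off at the edge of the plot where they run on. The Mei2-TAP peak sits inside intron 1 of ubc7, the Msa1-TAP peaks of ubc8, uba3 and ufd1 at the 5′ end, and that of ubc14 at the 3′ end.

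The ubc8 gene (SPBC211.07C) encodes another E2, whose budding yeast namesake acts in the destruction of gluconeogenic enzymes. It lies on the minus strand of chromosome II from 3885535 to 3886935 and has 1 exon. The Msa1-TAP peak, at 3886774 to 3886974, held 13.5 tags in the Msa1-TAP library, against 1.5 tags in the untagged library. The ratio was 6.31 (95% interval 1.23 to 95.5), and on a floor of 3 untagged tags it would be 3.16. Per 10000000 tags, the Poisson intervals of 202 to 635 for Msa1-TAP and 4.27 to 254 for untagged overlapped. The lower end of the ratio was the lowest of the members. By tags, the ubc8 peak stood at position 127 of the 140 Msa1-TAP peaks, whose median was 23.5.

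The ubc8 peak covered 161 nt of the 369 nt 5′ UTR and did not reach the start codon. Its other 39 nt lay beyond the annotated 5′ end of ubc8, over the 3′ end of mtr3, which encodes a component of the RNA-degrading exosome. The genes lie in tandem on the minus strand, and their annotated transcripts share 31 nt. The peak thus overlapped mtr3 by 70 nt (35.0%). Tags of ubc8 and mtr3 cannot be told apart over the shared part.

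The ubc14 gene (SPAC1250.03) encodes a further E2. It lies on the minus strand of chromosome I from 5097690 to 5098827 with 3 exons. The Msa1-TAP peak, at 5097663 to 5097863, held 16 tags of Msa1-TAP and 0.5 of untagged, a ratio of 22.5 (95% interval 2.10 to 23935), or 3.74 on the floor of 3 tags. The ratio took position 4 among the 140 Msa1-TAP peaks, while by tags the peak was 1 of 10 that tied at position 103. Per 10000000 tags, the Poisson intervals of 254 to 722 for Msa1-TAP and 0.0194 to 185 for untagged did not overlap. As at ubc7, the high ratio stood beside the fewest untagged tags listed, a value shared by 10 of the 140 Msa1-TAP peaks. Here too this value may stand for none.

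Unlike at the other members under Msa1-TAP peaks, the peak over ubc14 lay at the 3′ end of the gene. The peak covered 174 nt of the 497 nt 3′ UTR and 26 nt beyond it, with a midpoint at 92.4% of the gene length. The same stretch of the genome is crowded. The sfc7 gene, for a subunit of the RNA polymerase III factor TFIIIC, lies on the same strand wholly inside the ubc14 transcript (363 nt) and shares 14 nt with the peak. The non-coding RNA SPNCRNA.4304, on the other strand, lay under 134 nt (67.0%). Tags of ubc14 cannot be told apart from those of SPNCRNA.4304 or sfc7 over the shared parts.

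Only 1 activating enzyme gene was among the members. The uba3 gene (SPAC24H6.12C) encodes the catalytic subunit of the NEDD8-activating enzyme. It lies on the plus strand of chromosome I from 461716 to 463599 and has 1 exon. The Msa1-TAP peak, at 461583 to 461956, was the widest of the members at 373 nt and held 136 Msa1-TAP tags against 20.5 untagged tags, or 3778 against 812 per 10000000 tags. The ratio was 4.65 (95% interval 2.91 to 7.81). This is the best-counted member, at position 10 of 140 by tags, with a Poisson interval of 114 to 161 tags for Msa1-TAP and 12.6 to 31.5 for untagged. Its ratio stood at position 102 of 140, and unlike those of the other members it was the same on the floor of 3 untagged tags, where it exceeded the 3.16 to 3.74 of ubc8, ubc14 and ufd1. Per 100 nt of peak it held 36.5 Msa1-TAP tags and 5.50 untagged tags, against 6.75 to 8 Msa1-TAP tags and 0.25 to 1 untagged tags in the other Msa1-TAP members.

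The uba3 peak covered the entire 223 nt 5′ UTR and 18 nt of coding sequence, the bases printed above, which begin with the start codon. A further 132 nt lay upstream of the annotated gene. The uba3 peak met SPNCRNA.651, a non-coding RNA on the same strand that the annotation calls a possible alternative UTR, over 169 nt (45.3%). This overlap began upstream and ran on into the 5′ UTR of uba3. SPNCRNA.2188, on the other strand, lay under 35 nt of the upstream part (9.38% of the peak). The RNA of SPNCRNA.651 shares 37 nt with uba3. Whether the tags came from a uba3 mRNA, from a longer form of it or from these RNAs is not given by the lists.

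The ufd1 gene (SPBC16A3.09C) encodes the Cdc48 partner described above, annotated as a subunit of the Hrd1 ubiquitin ligase complex of the endoplasmic reticulum. It lies on the plus strand of chromosome II from 4282032 to 4283614, with 5 exons and 4 introns. The Msa1-TAP peak, at 4282012 to 4282212, held 16 Msa1-TAP tags against 2 untagged tags, a ratio of 5.61 (95% interval 1.32 to 50.3), or 3.74 on the floor of 3 tags. Per 10000000 tags, the Poisson intervals of 254 to 722 for Msa1-TAP and 9.59 to 286 for untagged overlapped. A single further untagged tag would have put the ratio below the value of 4 at which the list begins, as it would at ubc8.

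The ufd1 peak took in the whole 122 nt 5′ UTR, the start codon, the whole of intron 1 (47 nt) and the first 9 nt of exon 2, with 19 nt upstream of the gene. In the first exon only the 3 bases of the start codon are coding, as the printed run shows. None of the 4 branch-site letter runs named above stood in this short intron. ufd1 was the only member whose peak overlapped no other annotated gene on either strand. A Mei2-TAP peak lay 16.2 kb away, the shortest distance of any member to a peak of the other list.

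**Figure D2:**
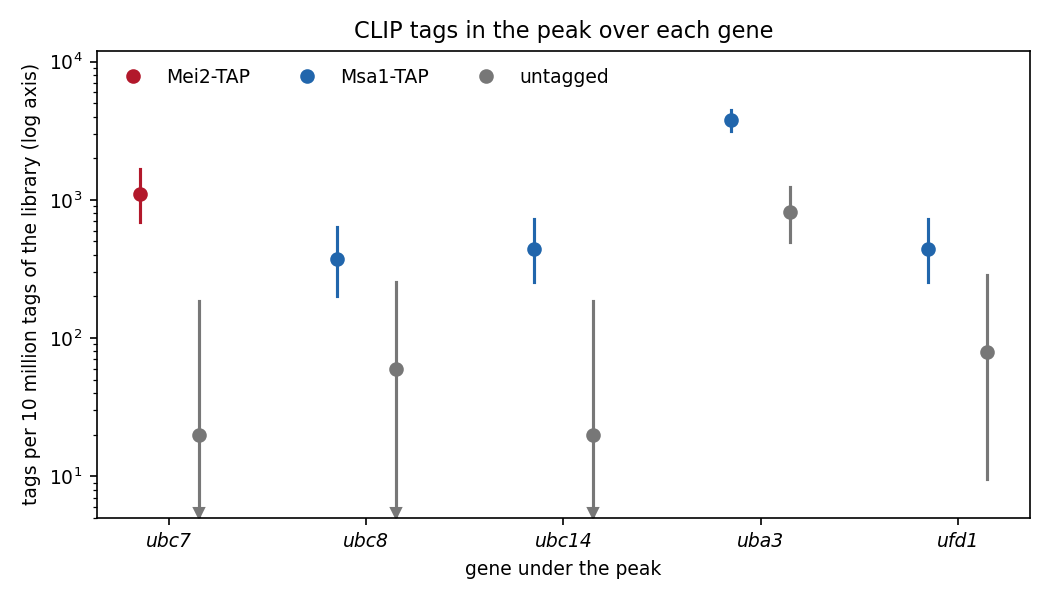
Tags in the peak over each gene per 10000000 tags of the library (y axis, log scale), in the tagged library that gave the peak (coloured) and in the untagged library (grey), with exact 95% Poisson intervals; arrowheads mark intervals that run below the axis. The tagged value lies above the untagged one at all 5 genes, by choice of the lists, and the intervals are apart at ubc7, ubc14 and uba3 on this common scale but overlap at ubc8 and ufd1.

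The 4 Msa1-TAP members could not be put in order by ratio. The intervals of ubc8, uba3 and ufd1 all included 4.65 to 5.61, as did that of ubc14, and the order changed on the floor of 3 untagged tags. The interval of the ratio lay above 2 for 3 of the 5 members, ubc7, ubc14 and uba3, with lower ends of 5.43, 2.10 and 2.91. In the lists as a whole 36.7% of Mei2-TAP peaks and 32.1% of Msa1-TAP peaks met this condition. At 8-fold or more in the lists stood ubc7, among 26.6% of Mei2-TAP peaks, and ubc14, among 17.1% of Msa1-TAP peaks. A deposited p of at most 1e-10 was listed for ubc7, as for 33.6% of Mei2-TAP peaks, and for uba3 and ubc14, as for 31.4% of Msa1-TAP peaks. All of these values come from the contrast that chose the members, and nothing is read from them. Fewer than 3 untagged tags lay under 4 of the 5 members, as under 59 of the 128 Mei2-TAP peaks and 64 of the 140 Msa1-TAP peaks. Both lists share the untagged library, so a low untagged count would raise the ratio in either.

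**Figure D3:**
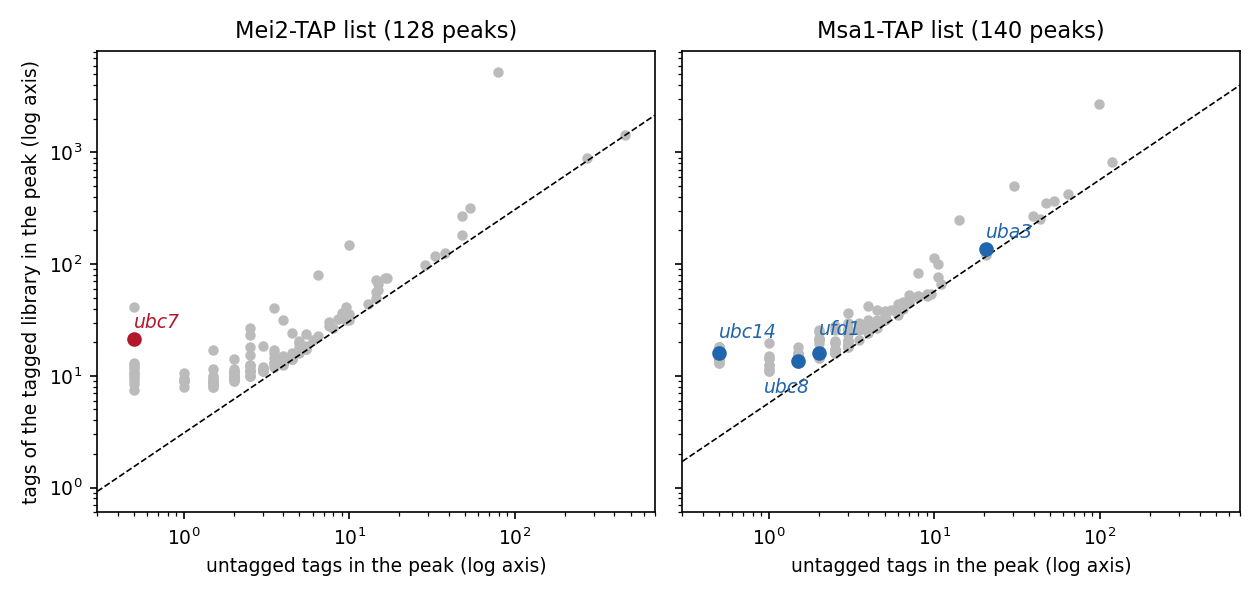
Tags of the tagged library (y axis, log scale) against untagged tags (x axis, log scale) for every listed peak (grey) and for the peaks over the 5 genes (coloured), Mei2-TAP on the left and Msa1-TAP on the right; the dashed line is a 4-fold ratio after scaling by library totals. ubc7 and ubc14 stand at 0.5 untagged tags, and uba3 lies among the deeper peaks just above the line.

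By place, the 5 peaks fell into 3 kinds: an intron for ubc7, the 3′ UTR for ubc14 and the 5′ UTR for ubc8, uba3 and ufd1, whose midpoints stood at 5.71%, 6.37% and 5.69% of the gene length from the 5′ end. None was centred in a coding exon, where 81.2% of Mei2-TAP peaks and 58.8% of Msa1-TAP peaks over coding genes had their midpoint. The midpoint lay in the 5′ UTR in 7 of 117 Mei2-TAP peaks and 25 of 119 Msa1-TAP peaks, and in the 3′ UTR in 11 Mei2-TAP peaks and 22 Msa1-TAP peaks. The first coding base lay in the peak for uba3 and ufd1, as it did for 21 of 117 Mei2-TAP and 21 of 119 Msa1-TAP peaks. The members were chosen with their places known, so these shares are given for orientation and not as a test.

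**Figure D4:**
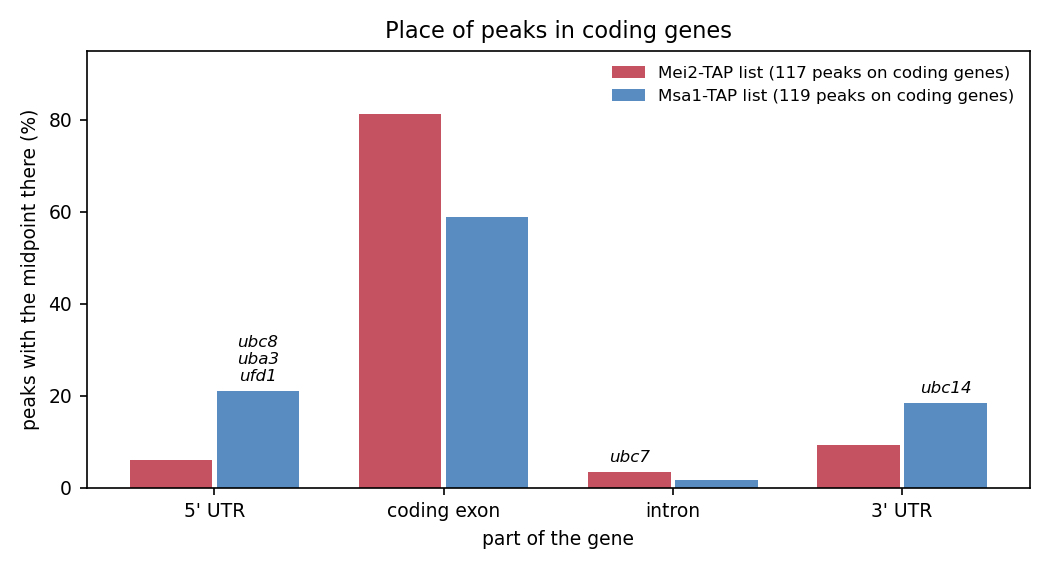
Share of the peaks over coding genes whose midpoint fell in each part of the gene (y axis, percent), for the Mei2-TAP list and the Msa1-TAP list, with the members named above the bar that includes them. The members sit in the 3 less frequent kinds of place, while most peaks of both lists were centred in coding exons.

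Mmi1, which removes meiotic transcripts in growing cells and is held by the Mei2 partner meiRNA, recognises the hexamer TTAAAC and its relatives with C (TCAAAC) or with G (TGAAAC) as the second base. None of the 5 peaks held any of these hexamers on either strand. Among all consecutive windows of 200 nt along the chromosomes, 23.4% held one on a given strand and 41.1% on either strand, and among windows of 373 nt, the size of the uba3 peak, 39.5% and 63.2% did. The G and C content was 33.0% in the ubc7 peak, against a median of 39.8% in the Mei2-TAP list. It was 29.0% for ubc8, 28.0% for ubc14, 33.8% for uba3 and 35.5% for ufd1, against a median of 35.5% in the nuclear peaks of the Msa1-TAP list.

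Over the wider pathway, the share of genes under a peak depended on the threshold, and no difference from coding genes at large was tested. Of 236 coding genes of the ubiquitin, NEDD8, SUMO and proteasome systems, 5 lay under a Mei2-TAP peak (2.12%) and 7 under an Msa1-TAP peak (2.97%), beside 2.25% and 2.54% of all coding genes. The 236 genes include the 5 members, which were chosen by their peaks, so these shares are not independent of that choice. With peaks of at least 8-fold, 4 pathway genes lay under Mei2-TAP peaks (1.69%, beside 0.704% of coding genes) and 3 under Msa1-TAP peaks (1.27%, beside 0.450%). No gene of the list lay under both, where the share of all coding genes was 0.313%. Of 16 E2 genes, ubc7 lay under a Mei2-TAP peak, ubc8 and ubc14 lay under Msa1-TAP peaks, and 13 lay under neither. uba3 was the only 1 of 6 E1 genes under a peak. No peak of either list lay over the 43 proteasome genes, the 16 genes of the anaphase-promoting complex, the 8 genes of ubiquitin and its relatives or the 8 genes for the removal of NEDD8. As only 2.25% and 2.54% of all coding genes lay under a peak of each list, nothing is read from these absences.

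The other pathway genes under Mei2-TAP peaks were 3 classed here with E3 ligases (btb1, mub1 and SPBC32F12.07C) and pof6, annotated as an F-box protein and an exocyst-like subunit. The most tags lay over btb1, which encodes a BTB-domain substrate adaptor of ubiquitin ligases, with 23.0 Mei2-TAP tags against 2.5 untagged tags in the coding exon, 12.0-fold (95% interval 3.32 to 76.8). It held more tags than the ubc7 peak, over 463 nt. The peak of pof6 and of SPNCRNA.7564 had 9.0 Mei2-TAP tags against 1.0 untagged tags, 11.7-fold (1.62 to 513). That of mub1, for a partner of the ligase Ubr2, and of SPNCRNA.6270 had 11.5 against 3.0, 4.99-fold (1.33 to 27.7). The peak over the 3′ UTR of SPBC32F12.07C, a MARCH-family ligase gene, and over pch1 had 9.0 Mei2-TAP tags against 0.5 untagged tags, 23.4-fold (1.98 to 25853), or 3.90-fold on the floor of 3 tags. The study lists SPBC32F12.07C as a Mei2 target by its microarray assay only. Its CLIP-Seq targets were a smaller set than the peaks listed here, namely the most significant peaks against both untagged and Msa1-TAP.

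Among the other pathway peaks of Msa1-TAP, dsk2, for a ubiquitin-receptor protein, had 15 Msa1-TAP tags against 1 untagged tag, 10.5-fold (1.62 to 443). The peak of pep3, annotated as a ligase gene, and of SPNCRNA.1277 had 15.5 against 0.5, 21.7-fold (2.03 to 23221), or 3.62-fold on the floor. That of the ubiquitin hydrolase gene ubp14 and of SPNCRNA.1538 had 16 against 2, 5.61-fold (1.32 to 50.3). These 3 peaks were centred in coding exons, unlike those of ubc8, ubc14, uba3 and ufd1. Among all 7, uba3 alone exceeded 16 Msa1-TAP tags.

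Library depth, as computed from the deposited columns, came to 194019 tags in Mei2-TAP, 359942 in Msa1-TAP and 252537 in untagged cells. The listed peaks took 5.72% of the Mei2-TAP tags and 2.68% of the Msa1-TAP tags. Neither list had a peak at mei2 or msa1, the genes of the tagged proteins, or at srp7, a control RNA of the study.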

How the data were processed

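The CLIP-Seq libraries were strand-specific and amplified for 12 cycles, with no molecular identifiers described. Paired reads were aligned by the authors with STAR to ASM294v2 (named a reference transcriptome in the methods), allowing annotated junctions only, then sorted with SAMtools, and wide peaks were called with HOMER against the untagged library (tool versions are not given in the sources used here). Each list uses 1 tagged library. Per the file headers, the deposited signal of a peak is scaled to 10000000 tags. The deposited estimated counts of tags come in steps of 0.5, and the other library of each pair is deposited as a scaled signal. The deposited fold, a ratio of scaled tags, starts at 4.01 in both lists. The deposited p-value, without adjustment, served only as a stricter threshold. Peak score and clonal ratio, also deposited, served no comparison. Identical series copies of the lists were not used.

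Library totals and raw tags were recovered from scaled and unscaled values. Tags came out within 0.2 steps of whole steps for 119 of the 119 Mei2-TAP peaks with low untagged values and for all 140 Msa1-TAP peaks. Ratios use these totals, with exact Clopper-Pearson intervals (95%) of the ratio, computed from tags as counts. Procedures were tested on simulated lists. Genes came from the RefSeq annotation of ASM294v3. Of 165 genes with published ASM294v2 coordinates, 162 had at least 1 identical end and 15 had both, so the coordinate systems match while UTR ends differ, and UTR placements hold for this annotation only. No peak lay past a chromosome end. Peak positions run from the base after the deposited start to the deposited end, which gives the deposited size. Any overlap of 1 nt counted, on either strand. The midpoint of a peak was taken over its stretch within the gene. For the shares over all peaks, each peak was given to the coding gene with the longest overlap.

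The members and gene lists were chosen with earlier results of these data known. The wider list holds coding genes with ubiquitin, NEDD8, cullin, F-box, proteasome, SUMO and related words in the annotated product, plus 153 symbols, of which 150 matched a current or older name. After the files were seen, 8 namesakes with other functions were left out, none of them under a peak. Named genes are the members, all genes of the wider list under a peak and all genes under the peaks of either. Analyses used Python 3.11.15, pandas 2.3.3 and SciPy 1.17.1.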

Additional observations from a re-analysis of the deposited data

How the results depend on the processing

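With stricter lists, the 4 members under Msa1-TAP peaks became 1 (ubc14) at a fold of at least 8, beside 0.450% of all coding genes. At a deposited p of at most 1e-10 they became 2 (uba3 and ubc14), beside 0.665%. The same 2 remained with the interval of the ratio above 2, also beside 0.665%. Counting from start to stop codon left 2 (uba3 and ufd1), beside 1.74%, since the peaks of ubc8 and ubc14 lie in UTRs. Nothing is read from these member counts. The 7 wider pathway genes under Msa1-TAP peaks became 3 at 8-fold (1.27%, beside 0.450% of coding genes), 2 at the stricter p (0.847%, beside 0.665%) and 3 with the interval above 2 (1.27%, beside 0.665%). The 5 under Mei2-TAP peaks became 4 at 8-fold (1.69%, beside 0.704%), 2 (ubc7 and btb1) at the stricter p (0.847%, beside 0.704%) and likewise 2 with the interval above 2 (0.847%, beside 0.782%). ubc7 stayed under a Mei2-TAP peak in all 7 settings tried, in which 0.704% to 2.11% of all coding genes lay under one. Counts of members and pathway genes stayed within 1.5 times under the rules on overlap (50% of the peak, midpoint, longest overlap). Lists with current symbols only, or with product words for ubiquitin or NEDD8 only, were both chosen after seeing the data. In these, 5 and 4 pathway genes lay under Mei2-TAP peaks (2.13% and 2.90%, beside 2.25% of coding genes). Under Msa1-TAP peaks lay 6 and 6 (2.55% and 4.35%, beside 2.54%), and no difference was tested. Ratios of the members stayed inside their counting intervals under the 3 other ways of computing them, although that of ubc7 was 9.33 to 56.0 and that of ubc14 3.74 to 22.5. The same tags entered each way and most of these intervals are wide, so little is learned about stability. The place class of each member was the same by midpoint and by most bases. Depth limits 4 of the 5 members, with under 3 untagged tags. No replicate could be left out, since each list rests on 1 tagged library. No paired analysis was possible because the lists hold 1 library of each group.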
